A study of Rattus norvegicus with 18 samples.

Results

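The Cyp3a genes encode cytochromes P450 of subfamily 3A. Probes for 4 of them, Cyp3a23-3a1, Cyp3a2, Cyp3a9 and Cyp3a18, were followed in the liver of rat pups whose dams had received BDE-47, a tetrabrominated diphenyl ether of flame retardant mixtures. The genes were taken by the gene annotation of the array, and all of their probes were kept, which gave 4 of 13337 named genes and 5 of 22523 probes. Cyp3a23-3a1 has 2 probes, ILMN_1369391 and ILMN_1349230, and each of the other genes has 1. Of the 4 other Cyp3a genes in RefSeq of GRCr8, 0 had a probe.

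The livers came from 18 Wistar pups, and the RNA of each was hybridized to its own Illumina RatRef-12 BeadChip array. Each group had 6 pups, and in every group replicates 1 to 3 were males and replicates 4 to 6 were females. All dams, 3 per group, got 6 tail vein injections, 1 every 5 days, from gestational day (GD) 15 to postnatal day (PND) 20. Dams of G1 received vehicle alone (95% ethanol, Cremophor EL and sterile water), dams of G2 received 0.002 mg/kg body weight BDE-47 in the same vehicle, and dams of G3 received 0.2 mg/kg. The pups were never injected themselves. They were nursed until PND 21 and sacrificed on PND 27. One male and 1 female were taken per litter, but the labels do not name litters, so littermates were treated as separate samples. The p-values may therefore be too small, except those between the sexes, which leave out the pairing within litters and may be too large.

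CYP3A enzymes are heme proteins of the endoplasmic reticulum, mostly in hepatocytes and enterocytes, that oxidize steroids, bile acids and many drugs. Their genes are classic targets of the pregnane X receptor PXR (Nr1i2), which binds DNA together with a retinoid X receptor such as Rxra, and the enzymes receive electrons from P450 oxidoreductase (Por) and cytochrome b5 (Cyb5a). In the adult rat, Cyp3a2 and Cyp3a18 are male-predominant, Cyp3a9 is female-predominant, and Cyp3a23-3a1 is known for its strong induction by dexamethasone and other PXR ligands.

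The members lie on chromosome 12 of the rat (GRCr8). Cyp3a2 and Cyp3a23-3a1 are immediate neighbours, Cyp3a18 belongs to the same cluster, and Cyp3a9 lies apart from it, with 170 genes between Cyp3a23-3a1 and Cyp3a62, the next Cyp3a gene, and 5 more before Cyp3a9. All 4 members matched the RefSeq promoter table of GRCr8. The stretch from 170 to 21 bases before each start site is shown. In Cyp3a23-3a1 and Cyp3a2 it holds a sequence of a kind that PXR is known to bind. Cyp3a9 and Cyp3a18 are given over the same stretch for comparison. Each window is written on the strand of its gene, and capitals mark the 6-base nuclear receptor motif AGTTCA on either strand (TGAACT on the other).
Cyp3a23-3a1, chr12:14398824-14398973, minus strand: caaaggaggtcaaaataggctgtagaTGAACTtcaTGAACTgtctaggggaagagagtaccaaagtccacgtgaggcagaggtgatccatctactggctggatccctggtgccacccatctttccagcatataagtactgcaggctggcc
Cyp3a2, chr12:14343878-14344027, minus strand: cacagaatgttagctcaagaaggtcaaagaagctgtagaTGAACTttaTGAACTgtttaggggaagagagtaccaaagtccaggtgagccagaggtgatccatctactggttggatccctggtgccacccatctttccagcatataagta
Cyp3a9, chr12:21960181-21960330, minus strand: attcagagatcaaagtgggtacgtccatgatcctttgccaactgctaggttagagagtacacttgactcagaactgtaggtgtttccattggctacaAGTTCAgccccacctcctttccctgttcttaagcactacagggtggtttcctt
Cyp3a18, chr12:13994142-13994291, plus strand: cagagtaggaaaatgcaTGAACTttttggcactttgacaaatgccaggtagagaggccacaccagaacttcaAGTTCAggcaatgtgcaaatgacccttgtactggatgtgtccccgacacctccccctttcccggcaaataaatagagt

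In Cyp3a23-3a1 and Cyp3a2 these motifs formed a direct repeat with 3 bases between them (DR3, AGTTCANNNAGTTCA), from base −144 to −130 in Cyp3a23-3a1 and from −131 to −117 in Cyp3a2. Over all 33469 promoter windows of the same 300 bases, only these 2 held the repeat in that exact form (0.00598%), whereas 14.5% held the single motif, which is also part of the repeat. Cyp3a18 had 2 separate motifs and Cyp3a9 had 1. The repeat with 4 bases between (DR4, AGTTCANNNNAGTTCA), the everted repeat with 6 (TGAACTNNNNNNAGTTCA) and the inverted repeat without a gap (AGTTCATGAACT), searched on both strands, matched none of the 4 windows. Over all 33469 windows these exact letters matched 4 (0.0120%), 0 and 0, so their absence here tells little. Looser forms of the motifs were not searched. The promoters of Cyp3a23-3a1 and Cyp3a2 were identical in 80.6% of 315 aligned columns, against 51.5% to 55.1% in the other 5 pairs. A match describes the letters of a window, and binding was not measured here.

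No Cyp3a probe passed an adjusted p of 0.05 (limma) in G3 against G1, in G2 against G1 or in G3 against G2, which 0.0799%, 0.0133% and 0.0178% of all probes did. The dimmer probe of Cyp3a23-3a1 came nearest, with a mean 2.37-fold that of G1 in G3 and 2.04-fold in G2, whereas the brighter probe of the same gene differed by at most 0.18 on the log2 scale in any of the 3 comparisons. Cyp3a2 stood slightly above G1 in both exposed groups, Cyp3a18 stood above G1 in G3, and Cyp3a9 stayed close to the lower end of the scale in all groups.

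For the Cyp3a23-3a1 probe ILMN_1349230, the log2 values of replicates 1 to 6 were 9.66, 8.74, 10.55, 10.12, 9.62 and 11.08 in G1, 11.05, 11.89, 10.02, 11.52, 10.40 and 11.07 in G2, and 11.07, 10.86, 10.81, 11.65, 11.65 and 11.23 in G3. In total 5 of the 6 G1 pups lay below every G3 pup, and the exception was G1 replicate 6, a female, which lay within the range of both exposed groups. The means were 9.96 ± 0.82 in G1, 10.99 ± 0.69 in G2 and 11.21 ± 0.37 in G3 (SD, n = 6 each). G3 exceeded G1 by 1.25 on the log2 scale (standard error 0.34, 95% interval 0.49 to 2.00), with an adjusted p of 0.101 from limma over all probes and p = 0.00866 by an exact two-sided permutation test of 6 against 6, whose smallest possible p is 0.0021645. Only 3 of the 22523 probes had a higher change in G3 against G1, and 0.0755% of all probes were at least 2-fold higher there, against 0.0488% in G2.

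G2 exceeded G1 on this probe by 1.03 (standard error 0.41, 95% interval 0.13 to 1.92), with an adjusted p of 0.486 from limma and p = 0.0476 by the exact permutation test. Of the 6 G1 pups, 3 lay below every G2 pup. G3 and G2 differed by 0.22 (standard error 0.30, 95% interval −0.43 to 0.87, limma adjusted p = 0.850). The limma F-test over the 3 groups gave an adjusted p of 0.152, with 0.186% of all probes past the adjusted threshold. Without G1 replicate 6 the difference between G3 and G1 was 1.47 (standard error 0.30) and passed, at an adjusted p of 0.0226 from limma, while the number of probes past that threshold over the whole array went to 1434, against 18 with all pups.

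The other probe of the gene, ILMN_1369391, gave 13.64, 13.32, 13.59, 13.47, 13.46 and 12.86 in G1, 13.52, 13.63, 13.37, 13.58, 13.71 and 13.25 in G2, and 13.14, 13.14, 13.49, 13.28, 13.28 and 13.60 in G3. The 3 groups overlapped over most of their range, and the lowest of all 18 pups was G1 replicate 6, the pup that was highest in G1 on the dimmer probe. The means were 13.39 ± 0.28 in G1, 13.51 ± 0.17 in G2 and 13.32 ± 0.19 in G3 (SD, n = 6 each). The change was −0.07 in G3 against G1 (standard error 0.13, 95% interval −0.35 to 0.22, limma adjusted p = 0.828) and 0.12 in G2 against G1 (standard error 0.13, 95% interval −0.16 to 0.39, limma adjusted p = 0.787). Both intervals lie below a log2 change of 1, the 2-fold limit. The change in G3 against G2 was −0.18 (standard error 0.10, limma adjusted p = 0.590).

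**Figure D1:**
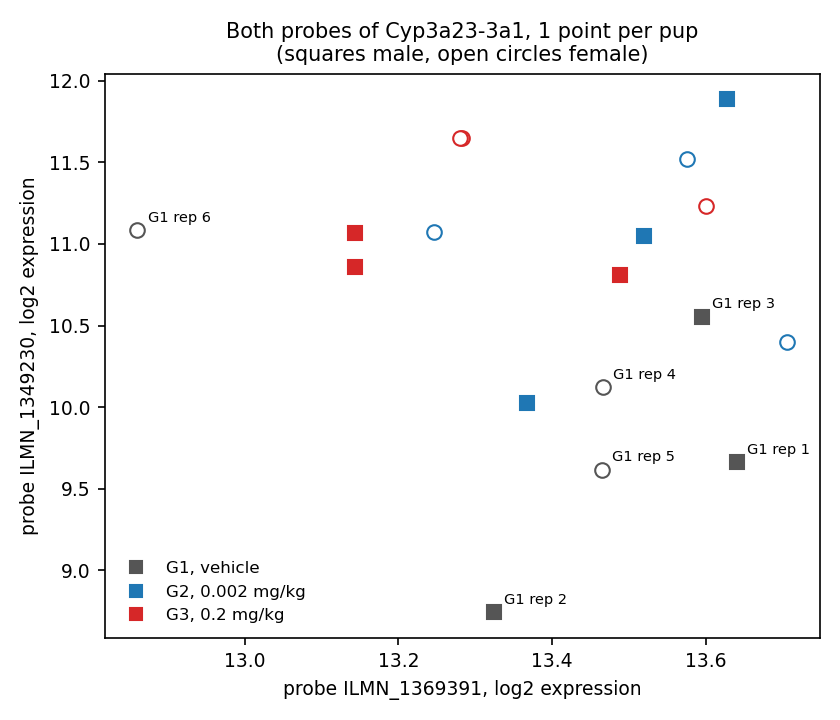
Log2 expression of Cyp3a23-3a1 by probe ILMN_1349230 (vertical axis) against probe ILMN_1369391 (horizontal axis), 1 point per pup, squares for males and open circles for females, coloured by group. Along the vertical axis 5 of 6 G1 pups lie below all G3 pups, along the horizontal axis the groups overlap, and G1 replicate 6 is the leftmost point at 12.86 and 11.08.

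The probes of Cyp3a23-3a1 therefore gave discordant readings of 1 gene, and both are given throughout. The brighter probe exceeded the dimmer one by 1.78 to 4.58 in G1 (3.43 ± 0.97), by 1.74 to 3.34 in G2 (2.52 ± 0.67) and by 1.63 to 2.68 in G3 (2.11 ± 0.42; SD, n = 6 each). These differences are a description, since the probes were known to be discordant when they were chosen, and a difference between probes also holds their unequal binding. Across the 18 pups Pearson's r between the probes was −0.12 and Spearman's rho was −0.14, which is also a description, since this pair was known to be discordant. Which part of the transcript each probe reads, and whether either also binds RNA of the closely related Cyp3a2, was not tested.

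Cyp3a2, the main male-predominant CYP3A of adult rat liver, was read near the top of the scale. The log2 values were 14.91, 15.08, 15.02, 15.46, 15.06 and 14.94 in G1, 15.29, 15.28, 15.21, 15.35, 15.26 and 15.15 in G2, and 15.17, 15.40, 15.30, 15.06, 15.46 and 15.34 in G3, where the highest value of any probe was 15.45 to 15.73 per array. All 6 pups of each exposed group lay above the median of G1, but G1 replicate 4 at 15.46 stood level with the highest G3 pup, so the groups overlapped. The means were 15.08 ± 0.20 in G1, 15.26 ± 0.07 in G2 and 15.29 ± 0.15 in G3 (SD, n = 6 each). G3 exceeded G1 by 0.21 (standard error 0.09, 95% interval 0.00 to 0.42, limma adjusted p = 0.263, exact permutation p = 0.0714), and G2 exceeded G1 by 0.18 (standard error 0.08, 95% interval 0.00 to 0.35, limma adjusted p = 0.501, exact permutation p = 0.0649). Between G3 and G2 the difference was 0.03 (standard error 0.06). How far values so near the top of the scale can still report an increase was not tested.

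Cyp3a18, also male-predominant in adult rats, varied most among the members. Its log2 values were 11.70, 12.04, 10.93, 11.86, 12.66 and 11.19 in G1, 12.92, 9.34, 11.78, 12.76, 11.26 and 12.71 in G2, and 11.78, 12.46, 12.58, 12.25, 13.10 and 12.75 in G3. The lowest and 3 of the highest 5 pups were in G2, whose values spread over 3.57, against 1.73 in G1 and 1.32 in G3. The means were 11.73 ± 0.62 in G1, 11.79 ± 1.36 in G2 and 12.49 ± 0.45 in G3 (SD, n = 6 each). G3 exceeded G1 by 0.76 (standard error 0.29, 95% interval 0.11 to 1.40), with an adjusted p of 0.198 from limma and p = 0.0390 by the exact permutation test. G2 and G1 differed by 0.06 (standard error 0.57, 95% interval −1.20 to 1.32, limma adjusted p = 0.982), and without G2 replicate 2, the pup at 9.34, by 0.55. G3 against G2 gave 0.69 (standard error 0.55, limma adjusted p = 0.724), and without that pup 0.20. The SD of Cyp3a18 within groups, pooled over the groups, was 0.90 and exceeded that of 99.9% of all probes. That of the dimmer Cyp3a23-3a1 probe was 0.65 and exceeded 99.7%.

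Cyp3a9, the female-predominant member, gave 7.93, 7.89, 7.86, 7.91, 7.86 and 7.86 in G1, 8.11, 7.92, 7.87, 8.11, 7.89 and 7.96 in G2, and 7.85, 7.83, 7.98, 7.78, 7.98 and 7.97 in G3. These values lie near the median of the arrays (7.84 to 7.85), mostly above it, and below their upper quartile (8.40 to 8.43), with a mean above that of 60.2% of all probes, and the file holds no detection p, so whether Cyp3a9 RNA was detected is not known. Of the G2 pups, 3 lay above all G1 pups, whereas 3 G3 pups lay above and 3 below them. The means were 7.88 ± 0.03 in G1, 7.98 ± 0.11 in G2 and 7.90 ± 0.09 in G3 (SD, n = 6 each). The change was 0.01 in G3 against G1 (standard error 0.04, limma adjusted p = 0.888) and 0.09 in G2 against G1 (standard error 0.04, limma adjusted p = 0.502, exact permutation p = 0.0584), and −0.08 in G3 against G2 (95% interval −0.20 to 0.04).

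**Figure D2:**
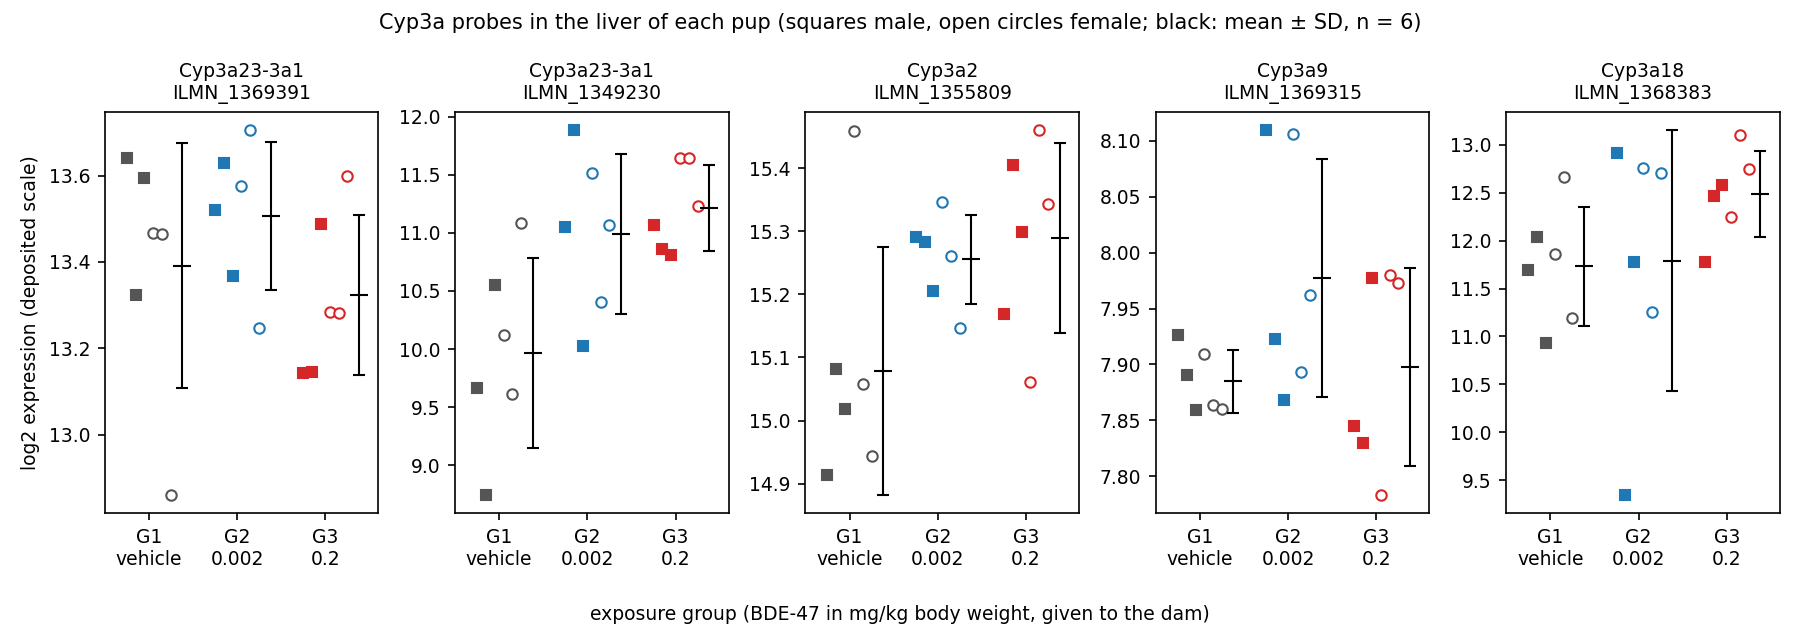
Log2 expression of the 5 Cyp3a probes in every pup, 1 panel per probe with its own vertical scale, groups ordered by dose, squares for males, open circles for females, and the mean ± SD of 6 pups in black. The dimmer Cyp3a23-3a1 probe ILMN_1349230 shows 5 of 6 G1 pups below all G3 pups, and Cyp3a18 shows the wide spread of G2, with 1 pup at 9.34.

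Of the 5 probes, 4 had a mean above that of G1 in G3 and 5 of 5 in G2. None passed an adjusted p of 0.05 with a 2-fold change in either comparison, which 0.00444% of all probes did in G3 and 0.00888% in G2. At an unadjusted p of 0.05, 3 of 5 were higher in G3 than in G1 (the dimmer Cyp3a23-3a1 probe, Cyp3a2 and Cyp3a18) and 2 of 5 were higher in G2 (the dimmer probe and Cyp3a2), against 8.59% of all probes higher in G3 and 4.40% in G2 at that limit. These counts turned on single pups. With each pup left out in turn, the count in G3 was 3 of 5 in 3 of 12 cases, 2 in 5 and 1 in 4 (without G3 replicate 5 or 6 or G1 replicate 3 or 6, where the dimmer Cyp3a23-3a1 probe alone was left), and the count in G2 was 0 in 4 cases (without G2 replicate 4 or G1 replicate 1, 2 or 5), 1 in 4 and 2 in 4. With all 3 groups fitted together Cyp3a18 in G3 had an unadjusted p of 0.149 from limma. The median change of the 5 probes was 0.21 in G3 and 0.12 in G2, beside a median of −0.00 over all probes in both. Both comparisons use the same G1 pups, and 1 gene counts with 2 probes. No member had G3 or G2 wholly above G1, as 0.870% of all probes had in G3 and 0.213% in G2. Between G3 and G2 no member reached an unadjusted p of 0.05, which 9.47% of all probes did.

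**Figure D3:**
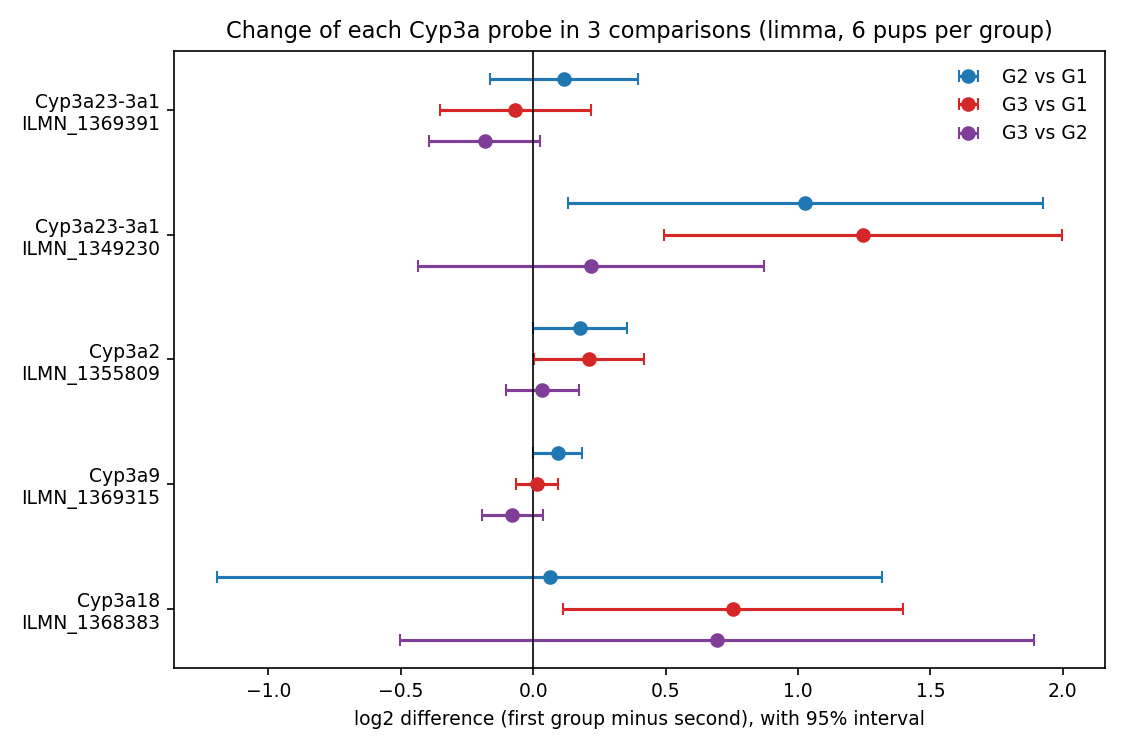
Log2 difference of each Cyp3a probe in G2 against G1, G3 against G1 and G3 against G2, with the 95% interval of the limma fit (6 pups per group, not adjusted for the number of probes). The dimmer Cyp3a23-3a1 probe lies at 1.03 and 1.25 against G1, the brighter one at 0.12 and −0.07, and the intervals of Cyp3a18 are the widest.

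The sexes were compared over all groups, because several of these genes are sexually dimorphic in adult rats. Cyp3a2 averaged 15.23 ± 0.19 in females and 15.18 ± 0.16 in males (SD, n = 9 each), a difference of 0.05 (95% interval −0.12 to 0.21, exact permutation p = 0.574). Cyp3a18 averaged 12.28 ± 0.69 in females and 11.73 ± 1.07 in males, a difference of 0.56 (95% interval −0.30 to 1.41, exact permutation p = 0.216), which was 0.26 without G2 replicate 2, a male. Cyp3a9 averaged 7.93 ± 0.09 in females and 7.91 ± 0.09 in males, and the probes of Cyp3a23-3a1 differed between females and males by 0.41 (dimmer) and −0.04 (brighter). None of the 5 probes passed (adjusted p from 0.974 to 0.988 from limma), where 0.00444% of all probes did, and none reached an unadjusted p of 0.05, where 3.95% did. The change in females minus the change in males was not past the threshold for any member in G3 or in G2 (adjusted p above 0.999 from limma for all), with wide intervals, as for Cyp3a18 in G3 (0.08, 95% interval −2.13 to 2.29). Females and males of 1 group numbered 3 each, and littermates could not be paired.

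Across the 18 pups the member probes showed no relation that passed correction. The 10 pairs gave Pearson's r from −0.15 to 0.42, and with Spearman's rho made 20 relations tested by 100000 permutations. The pair of Cyp3a23-3a1 probes, known to be discordant when chosen, is among these 10. The highest rank correlations were those of Cyp3a9 with Cyp3a18 (rho = 0.56, permutation p = 0.0167, adjusted 0.269, Pearson's r = 0.38, permutation p = 0.116) and of Cyp3a2 with Cyp3a18 (rho = 0.53, permutation p = 0.0269, adjusted 0.269, Pearson's r = 0.29, permutation p = 0.252). Without the 2 pups farthest from the median of the first gene, Pearson's r of these pairs was 0.21 and 0.20. Cyp3a23-3a1 by its dimmer probe and Cyp3a2, the neighbours that share the DR3 repeat, had r = 0.37 (permutation p = 0.127, rho = 0.34, p = 0.166), and −0.01 once each pup was set against the mean of its group.

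The dimmer Cyp3a23-3a1 probe stood out from the other members in how many probes followed it. Its Pearson's r over the 18 pups was 0.90 or above with 144 of the other 22522 probes and −0.90 or below with 25, whereas the other 4 member probes had none at either limit. The named genes most like it were Man1a1, a mannosidase of the Golgi (r = 0.97), Rab1a, a GTPase of transport from the endoplasmic reticulum (0.96), Mtmr6, a phosphoinositide phosphatase (0.96), Dhtkd1, a subunit of a mitochondrial dehydrogenase (0.96), and Aldh9a1, an aldehyde dehydrogenase (0.96). The least alike were the zinc finger gene Patz1 (−0.94) and Lonp1, a mitochondrial protease (−0.93). In all 5 genes of highest r, G1 replicate 6 was the highest and G1 replicate 2 the lowest pup of G1, as on the Cyp3a23-3a1 probe. With each pup set against its group mean the r of these 5 was still 0.92 to 0.95, and 67 probes lay at 0.90 or beyond in either direction. These genes were chosen by their r on the same 18 arrays, so shared extreme pups and a high r within groups follow in part from that choice. No p is given.

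Among named genes, the most alike for the brighter Cyp3a23-3a1 probe was Pcdhb4 (r = 0.77), and for Cyp3a9 it was Ctsr (0.75), both at the lower end of the scale with mean log2 values of 7.74 and 7.75. The named gene most like Cyp3a2 was Akr1d1 (r = 0.81), a steroid reductase of bile acid synthesis that stood at a mean of 12.77, and its lowest was Tmem164 (−0.82). Those most like Cyp3a18 were Sez6 (0.75) and Gnmt (0.74), the glycine N-methyltransferase of hepatocytes, and its lowest was Gpr135 (−0.76). Of the 20 genes most like these 4 probes, 14 had a mean log2 value below 8.40, the upper quartile of the arrays. Most probes lie below an upper quartile by definition, so this count does not set the genes apart.

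**Figure D4:**
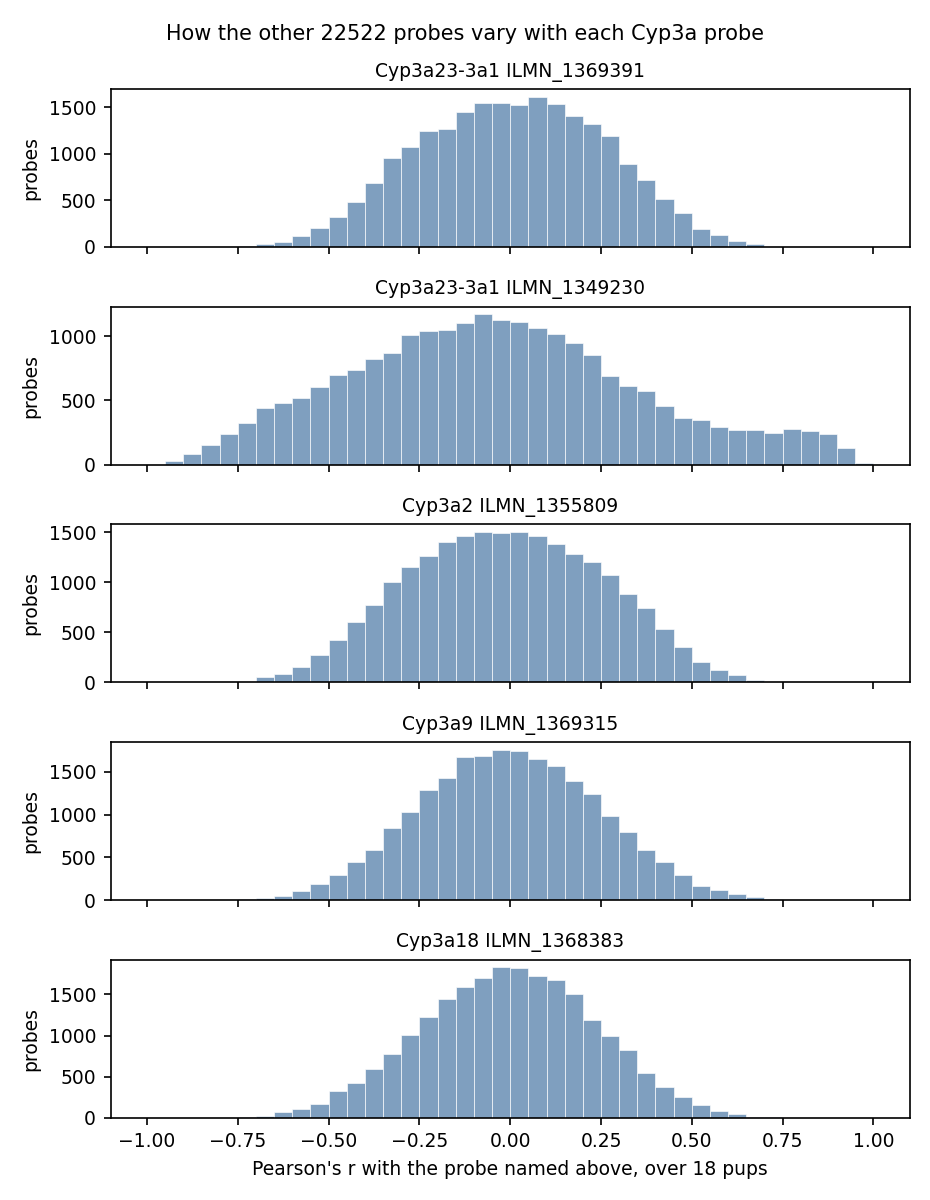
Number of probes by their Pearson's r with each Cyp3a probe over the 18 pups, in steps of 0.05, 1 panel per Cyp3a probe. The dimmer Cyp3a23-3a1 probe ILMN_1349230 has a broad distribution with 144 probes at 0.90 or above, and the other 4 panels have none there.

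Of the receptors and partners that act on Cyp3a promoters, 16 of 17 listed genes were measured and none passed an adjusted p of 0.05 in any comparison. Nr1i2, which encodes PXR, averaged 11.09 ± 0.11 in G1, 11.05 ± 0.13 in G2 and 10.96 ± 0.05 in G3, a change of −0.13 in G3 (standard error 0.05, limma adjusted p = 0.172) and −0.04 in G2 (adjusted p = 0.873). Nr1i3, which encodes the related receptor CAR, differed from G1 by 0.23 in G3 (standard error 0.23) and by 0.12 in G2 (standard error 0.23), and Rxra, their partner, by 0.13 (standard error 0.06) and 0.11 (standard error 0.07). The liver factors Hnf4a and Foxa2 were at 0.17 and −0.58 in G3 against G1 (limma adjusted p = 0.189 and 0.244). The median change of the list was −0.00 in G3 and 0.07 in G2.

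Por, which hands electrons from NADPH to every microsomal P450, was the only measured gene of the 4 lists of related genes to pass in any comparison. It averaged 12.32 ± 0.41 in G1, 11.90 ± 0.18 in G2 and 11.17 ± 0.16 in G3 (SD, n = 6 each), and every G3 pup (10.94 to 11.40) lay below every G2 pup (11.63 to 12.14) and every G1 pup (11.71 to 12.73), as 0.386% and 1.08% of all probes did. It fell by 1.15 in G3 against G1 (standard error 0.17, limma adjusted p = 0.0461) and by 0.74 in G3 against G2 (standard error 0.09, adjusted p = 0.0275), while G2 against G1 gave −0.42 (standard error 0.17, adjusted p = 0.486). With each pup left out in turn it stayed between −1.28 and −1.07 in G3 against G1 but passed in only 3 of 12 cases, without G1 replicate 3 or 6 or G3 replicate 6 (adjusted p from 0.00933 to 0.113), and in G3 against G2 it passed in 2 of 12 (0.0120 to 0.112), without G2 replicate 6 or G3 replicate 2. The call in G3 against G1 was also lost with sex as a covariate (limma adjusted p = 0.0510). That in G3 against G2 was lost with all 3 groups fitted together (limma adjusted p = 0.249). Both were lost in females or males alone (limma adjusted p from 0.272 to 0.795) and when the fit blocked on replicate number (0.146 and 0.173). That block left the changes at −1.15 and −0.74, and the labels do not say that replicate numbers pair pups. Of the 4 measured genes of the 6 listed as electron donors, with heme enzymes, Por was the one that passed. Cyb5a, the other electron donor of CYP3A, averaged 15.04 ± 0.09 in G3 and 14.81 ± 0.16 in G1, a change of 0.23 (standard error 0.07, limma adjusted p = 0.129).

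Other genes listed as PXR and CAR targets in rodent liver were measured for 19 of 28, and 0 passed an adjusted p of 0.05 in limma. The list does not part genes that these receptors raise from genes that they lower. At an unadjusted p of 0.05, 5 were higher and 2 lower in G3 than in G1, and 6 higher and 1 lower in G2 (8.59% and 9.98% of all probes in G3, 4.40% and 5.59% in G2). Gsta2, a glutathione S-transferase, was at 1.07 in G3 (standard error 0.21, limma adjusted p = 0.0584) and 0.97 in G2 (standard error 0.26, adjusted p = 0.435). Ugt1a1, a bilirubin glucuronosyltransferase, was at 1.18 (standard error 0.34, limma adjusted p = 0.115) and 0.90 (standard error 0.35, adjusted p = 0.486), and Gstm2, another glutathione S-transferase, at 0.96 (standard error 0.24, adjusted p = 0.0847) and 0.63 (standard error 0.12, adjusted p = 0.302). Akr1b7, an aldo-keto reductase, went the other way, at −1.68 in G3 (standard error 0.45, limma adjusted p = 0.0970) and −1.23 in G2 (standard error 0.44, adjusted p = 0.471), and Thrsp, a lipogenic gene, was at −0.47 in G3 (standard error 0.15, limma adjusted p = 0.126). The P450 gene Cyp2c7 was at −0.18 in G3 and 0.97 in G2 (limma adjusted p = 0.802 and 0.412). The median of the list was 0.00 in G3 and 0.11 in G2.

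**Figure D5:**
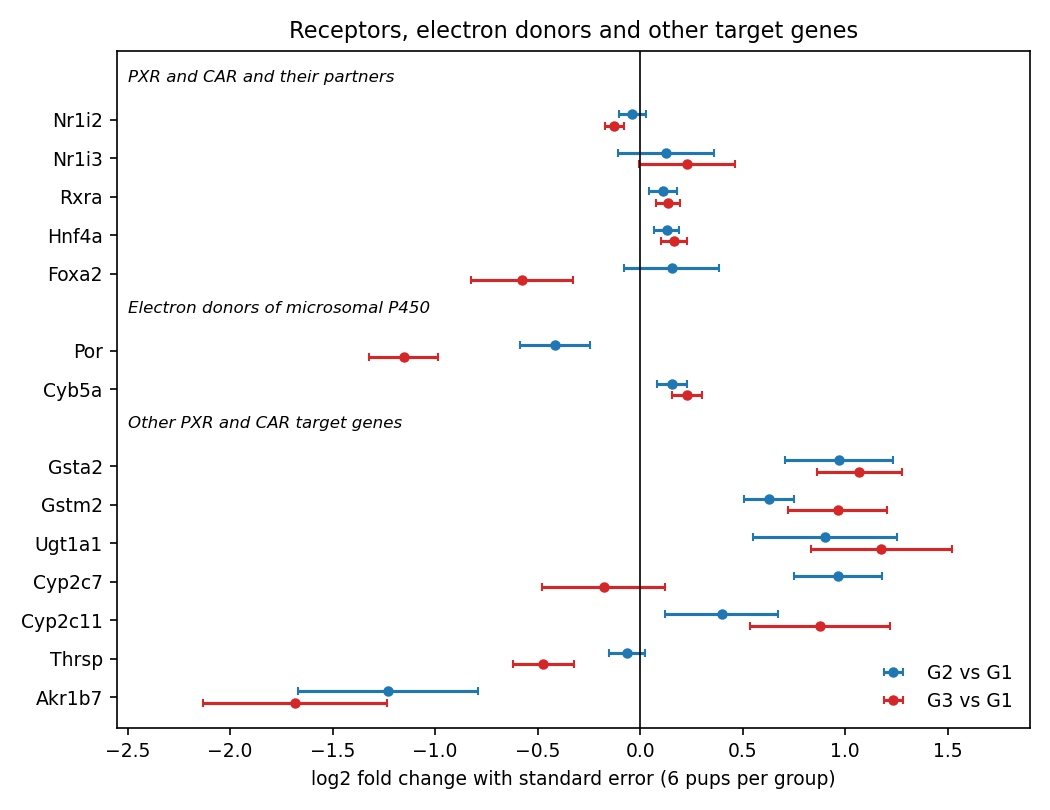
Log2 fold change with its standard error in G2 against G1 and G3 against G1 (6 pups per group). Shown are receptors and their partners, electron donors and other PXR and CAR target genes. They were chosen for a small unadjusted p in these data, except Por, Nr1i2, Nr1i3 and Rxra, which were named whatever their values. Por at −1.15 in G3 is the only gene shown that passed an adjusted p of 0.05, and Gsta2, Gstm2 and Ugt1a1 lie above 0 and Akr1b7 below 0 in both exposed groups.

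Among genes with a sex pattern in adult rat liver, 13 of 18 were measured and 0 passed in limma in any comparison, females against males included. Cyp4a2, a fatty acid hydroxylase, was at 1.06 in G3 (standard error 0.21, limma adjusted p = 0.0584) and 1.08 in G2 (standard error 0.18, adjusted p = 0.139). Cyp2c11, the typical male-specific P450 of adults, was at 0.88 in G3 (standard error 0.34, adjusted p = 0.201) and 0.40 in G2, and differed by −0.04 between females and males. The female-predominant A1bg was at −0.85 in G3 (standard error 0.32, limma adjusted p = 0.185) and the sulfotransferase gene Sult2a6 at −0.23 (standard error 0.05, adjusted p = 0.0584). Hsd3b5, at 0.06 in G3 (standard error 0.02, adjusted p = 0.105), lay at the lower end of the scale.

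The arrays correlated with each other at r = 0.974 to 0.995. Hepatocyte markers (5 of 6 measured) averaged 13.34 to 13.74 per pup, and enterocyte markers (4 of 7 measured), of the other main site of CYP3A, 8.13 to 8.36. Among the enterocyte markers Vil1 was at 7.79 to 7.95, whereas Fabp2 was at 8.85 to 9.58, above the upper quartile of the arrays. Pericentral hepatocyte markers (7 of 8), of the zone where CYP3A is known to be highest, averaged 10.70 to 10.84 in G1, 10.73 to 10.89 in G2 and 10.47 to 10.75 in G3. Of these, 6 of 7 had a change below 0 in G3 against G1, with 1 lower at an unadjusted p of 0.05 (9.98% of all probes). Periportal hepatocyte markers (7 of 7) were mixed, with 5 above and 2 below 0 in G3 against G1. At that limit 1 was higher, Cps1 at 0.78, and 1 lower, Sds at −1.06 (8.59% and 9.98% of all probes). Erythroid markers (5 of 6 measured) averaged 9.92 to 10.48 per pup in G2, against 10.28 to 11.09 in G1, and all 5 were lower in G2 at an unadjusted p of 0.05 (5.59% of all probes), led by Hba-a3 at −0.96 and Ahsp at −0.73, with 0 past an adjusted p of 0.05 in limma. In G3 they averaged 10.20 to 10.64, with 0 of 5 below that limit against G1. The part of any of these lists in the Cyp3a values was not tested, and in whole liver fewer cells of a zone and less RNA per cell cannot be told apart. G3 replicate 2 stood apart in skeletal muscle markers (6 of 8 measured, mean 11.00, against at most 7.80 in any G1 pup). Without it the dimmer Cyp3a23-3a1 probe, Cyp3a2 and Cyp3a18 differed between G3 and G1 by 1.32, 0.19 and 0.76. The muscle marker Acta1 was 13.70 in that pup, but also 8.91 in G3 replicate 4, against 7.90 in G3 replicate 3, the next highest pup. Without replicate 4 instead, these differences were 1.16, 0.26 and 0.80.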

How the data were processed

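RNA of each liver was hybridized to an Illumina RatRef-12 BeadChip. The authors preprocessed and normalized the data with lumi in FlexArray 1.2, and the deposited values are log2 expression. For the lumi version and the normalization, no source used here gives either. The table holds 22523 probes on 18 arrays, with no detection p. Its arrays were made alike by the normalization, so changes are relative to the whole array. The number of arrays limits the precision.

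Values were used as deposited. Groups were compared in pairs by the lmFit and eBayes functions of limma 3.58.1 in R 4.3.3, two-sided, sexes pooled, and p-values were adjusted over all probes by the method of Benjamini and Hochberg. Calls required an adjusted p of 0.05 or less and a 2-fold change. Single probes were also tested by exact permutation (numpy 2.4.6) over all 924 splits of 6 against 6 or 48620 of 9 against 9. Ranks and adjusted p-values of the correlations came from scipy 1.17.1. The fit was tested on simulated data. The study's two-sample Bayesian test was not run. Array annotation was updated through RefSeq of GRCr8 (13752 probes matched), and promoters were aligned with Biopython 1.88.

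Members and lists were chosen with earlier results of these data known. The named genes are all member probes, the genes of each list past an adjusted p of 0.05 and up to 6 of smallest p (at most 0.05 before adjustment), the genes Por, Nr1i2, Nr1i3 and Rxra, and the 5 most and 2 least alike genes of each member, of which the first are printed. Alternatives were a fit of all groups, a trended variance prior, quantile normalization, median centring, dim probes left out, sex as a covariate, 1 sex, replicate number as a block, array weights, other thresholds, and each pup left out.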

Additional observations from a re-analysis of the deposited data

Results flagged for a closer look

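In each group of 6 pups the highest and the lowest value were set against the rest by Dixon's criterion at 95%. Of 15 such groups of member values 1 stood out: Cyp3a2 in G1, where replicate 4, a female, was at 15.46 and the other 5 pups at 14.91 to 15.08. Over the members and the related genes 2 of 69 groups stood out, and the other was Thrsp in G1, whose replicate 5 was lowest at 14.87. Chance marks about 1 in 20 groups.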

How the results depend on the processing

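No Cyp3a probe passed an adjusted p of 0.05 in limma under any alternative except the dimmer Cyp3a23-3a1 probe in G3 against G1 without G1 replicate 6 (1.47, adjusted p = 0.0226, against 0.0226 to 0.605 over its alternatives). By the exact permutation test, unadjusted, this probe passed in G3 (1.25) and G2 (1.03), and Cyp3a18 in G3 (0.76). Signs turned for changes near 0. In males alone these were Cyp3a9 in G3 (−0.0079), Cyp3a18 in G2 (−0.21), the brighter probe in G2 (−0.0144) and the dimmer one in G3 against G2 (−0.0736), and in females alone the brighter probe in G3 (0.12). With 1 pup left out the range in G3 against G1 was 1.00 to 1.47 for the dimmer probe and −0.0031 to 0.0362 for Cyp3a9, that in G2 against G1 was −0.16 to 0.55 for Cyp3a18, that in G3 against G2 was −0.0002 to 0.0797 for Cyp3a2, and that in females against males was −0.0114 to 0.0356 for Cyp3a9 and −0.0808 to 0.025 for the brighter probe. Correlations also turned: the brighter probe with Cyp3a2 (−0.15) and the dimmer one with Cyp3a18 (0.0577) without the 2 most extreme pups, and the dimmer one with Cyp3a2 (−0.00969) centred on group means. The cause was not tested.

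Over all probes, G3 against G1 gave 1 call, and 17 with all 3 groups fitted together, 13 with a trended prior, 10 without dim probes, 9 with array weights, 18 with no fold limit, 4183 at an unadjusted p of 0.05, 0 in either sex alone, and 0 to 38 with 1 pup left out. G2 against G1 gave 2, and 0 with all groups, quantile normalization or either sex alone, 1 with array weights or sex as a covariate, 2248 unadjusted, and 0 to 3 with 1 pup left out. G3 against G2 gave 0, and 4 with no fold limit and 2132 unadjusted. The F-test gave 42 probes, and 68 with a trended prior. Females against males gave 1 probe, and 1 to 2 with 1 pup left out. With the replicate number as a block, G3 against G1, G2 against G1 and G3 against G2 gave 0 calls each. Same-numbered pups of different groups did not deviate together (correlations from −0.33 to 0.22), which gives no sign that the numbers pair samples across groups. Littermates share a group, so this check does not reach them, and a shared order of processing was not tested.

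Cyp3a9 was read near the lower end of the scale and Cyp3a2 near its top. There are 6 pups per group, and littermates are not named.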
